A study of Rattus norvegicus with 24 samples.

Results

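The data described here are the late changes of primary rat hepatocytes kept as a monolayer on a single collagen gel, taken as monolayer day 8 against monolayer day 3. The members were chosen by title alone: 3 arrays labelled single gel at day 8 and 3 labelled single gel at day 3, which makes 6 of the 24 arrays of the series. Days were counted from the time at which parallel sandwich cultures received their second gel. All groups shared the same medium, a DMEM base with fetal bovine serum, epidermal growth factor, insulin, glucagon and hydrocortisone, changed daily. Monolayer day 8 and monolayer day 3 cells were isolated primary hepatocytes on type I collagen without a covering gel, a system that the labels treat as the unstable control. The other groups used here for reference were sandwich day 8 and sandwich day 3, covered by a second collagen gel and treated by the labels as the stable control, and monolayer day 1, with 3 arrays each. Strain, sex and age of the animals are not given in the sources used here. The labels leave the origin of the triplicates unstated (animals, isolations or wells), and the p-values therefore reflect only array-to-array spread, which may be technical.

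Hepatocytes taken out of the liver lose their polarity and their contacts with neighbouring cells, and in culture they dedifferentiate: the mRNAs of metabolic enzymes and secreted proteins decline while cytoskeletal and matrix genes switch on. SREBP and ChREBP transcription factors drive lipid synthesis genes under insulin, and PPAR-alpha drives fatty acid oxidation genes. Liver epithelial cells can also take on keratins of bile duct cells, a change seen in injured liver and in long culture.

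Values are log2 probe set levels, so a difference of 1 is a 2-fold change on the linear scale. Array medians over the series lay between 5.57 and 5.67. Any pair among the 6 arrays correlated (Pearson, over all probe sets) at 0.993 to 0.996 within a day and at 0.984 to 0.989 between the days. RNA integrity was read from control probe sets at both ends of 2 transcripts: for beta-actin the 3' end exceeded the 5' end by 0.84 ± 0.05 at day 8 and 0.81 ± 0.02 at day 3 (log2, SD, n = 3 each), and for GAPDH by 0.30 ± 0.06 at day 8 and 0.33 ± 0.08 at day 3. No extraction, labelling or scan batch is given in the sources used here, so day and any such batch cannot be told apart. The table holds no detection calls, and where the lower group mean lies under 5.62, the median of the whole table, the background is unknown and a difference is given without a fold.

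The late step changed 12.5% of probe sets, 3885 of 31042 at an adjusted p under 0.05, with 2149 higher (6.92%) and 1736 lower (5.59%) at day 8. Which direction held more calls depended on the processing: there were 1738 higher and 1775 lower with arrays centred on their medians, and 1731 higher and 1816 lower with probe sets under the table's median left out. A change of at least 2-fold was reached by 476 of them, 283 higher and 193 lower (1.53%, 0.912% and 0.622% of probe sets). With 1 probe set per gene, 2422 of 14217 genes were called (17%), 1231 higher (8.66%) and 1191 lower (8.38%), and the median change over all genes was -0.01. The arrays of the days did not overlap in 33.6% of genes, with day 8 above in 16.4% and below in 17.2%. Day 8 replicate 3 was the lowest of the 3 day 8 arrays in 46.3% of the fallen genes and the highest in 45% of the risen ones, and 3029 probe sets were called without it, against 2888 without day 3 replicate 2, the lowest such count. In bulk RNA, fewer cells of a type and less RNA per cell cannot be told apart, and this holds for every level below.

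The largest rise was that of Vim, which encodes the intermediate filament vimentin of mesenchymal cells. Its levels were 12.98, 12.61 and 12.996 in monolayer day 8 arrays, against 8.92, 8.47 and 8.88 in monolayer day 3 arrays. That is a difference of 4.10 ± 0.15 (log2, SE), or 17.2-fold (adjusted p = 1.27e-15). Among the 7 largest rises were 2 keratins of bile duct epithelium. Krt19 stood at 7.91, 7.84 and 8.16 at day 8, against 4.55, 4.53 and 4.49 at day 3, a difference of 3.45 ± 0.11 (adjusted p = 1.37e-16). Krt7 stood at 7.48, 7.36 and 6.86 at day 8, against 3.82, 4.02 and 3.95 at day 3, a difference of 3.31 ± 0.15 (adjusted p = 1.34e-13). The 15 largest rises and 15 largest falls were taken from genes whose days did not overlap, so the separation of these genes here and below follows from the choice. Most other genes named from the lists below were picked by the smallest p, which favours separated days. Their lack of overlap is a description, beside 33.6% of all genes. The day 3 levels of both keratins lay below the table's median.

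Other genes among the 15 largest rises encode cytoskeletal, membrane and signalling proteins. Map2, a microtubule-associated protein best known from neurons, stood at 11.30, 11.14 and 10.35 at day 8, against 7.59, 7.08 and 7.29 at day 3, 12.2-fold higher (adjusted p = 3.51e-12). Anxa1, annexin A1, a phospholipid-binding protein with anti-inflammatory action, stood at 12.16, 12.24 and 12.23 at day 8, against 9.22, 9.16 and 9.43 at day 3, 7.68-fold higher (adjusted p = 2.26e-12). Replicate 3 was the lowest of the day 8 arrays for Map2. Ucp2, an inner mitochondrial membrane carrier, was 6.73-fold higher, with 9.32 ± 0.35 at day 8 and 6.56 ± 0.11 at day 3 (SD, n = 3 each). Tsc22d3, which encodes the glucocorticoid-induced leucine zipper protein GILZ, was 5.95-fold higher, with 10.64 ± 0.13 at day 8 and 8.07 ± 0.24 at day 3. Rgs2, which shuts off G protein signals, was 5.46-fold higher, with 11.02 ± 0.17 at day 8 and 8.57 ± 0.03 at day 3. Lhfpl6, Armcx2 and Pamr1, whose day 3 levels lay under the table's median, were higher by 3.63, 3.45 and 2.83 on the log2 scale (adjusted p = 1.12e-12, 1.27e-15 and 1.37e-16). The other probe set of Lhfpl6 changed by 0.05 and was not called.

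**Figure D1:**
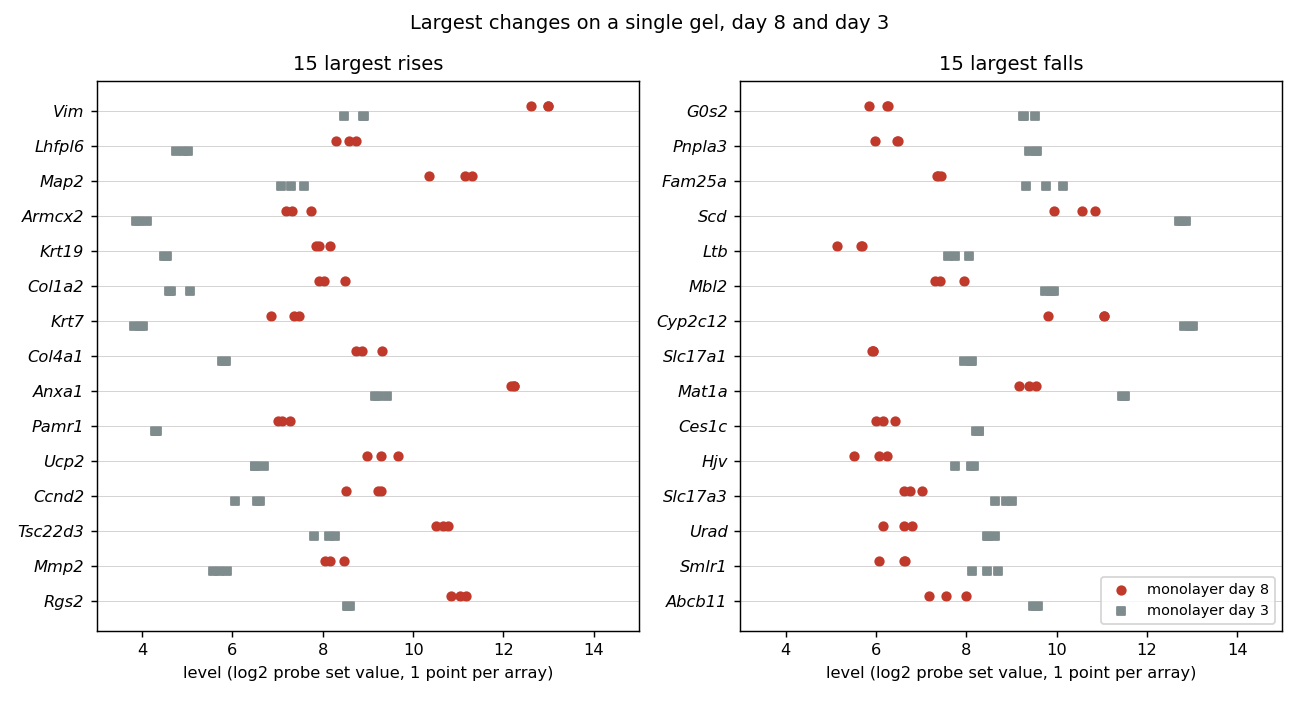
Log2 probe set level on the horizontal axis of the 15 largest rises (left panel) and 15 largest falls (right panel), 1 point per array, red circles for monolayer day 8 and grey squares for monolayer day 3. The genes were chosen among those whose days did not overlap, so the gap between the clouds is given by the choice; Vim moved furthest, by 4.10.

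Of 50 measured genes of collagens and extracellular matrix, 19 rose, 2 fell and 29 missed the threshold, with a median change of 0.23, beside 8.66% of all genes called higher and a median of -0.01, and 11 rose when probe sets under the table's median were left out. Col1a2, a chain of fibrillar type I collagen, stood at 8.49, 7.91 and 8.02 at day 8, against 5.06, 4.64 and 4.58 at day 3, a difference of 3.38 ± 0.28 (adjusted p = 2.50e-09). Col4a1, a chain of the basement membrane collagen, stood at 9.32, 8.74 and 8.86 at day 8, against 5.86, 5.83 and 5.77 at day 3, 8.89-fold higher (adjusted p = 6.25e-12). Both genes were separated between the days, with replicate 1 the highest of the day 8 arrays. Further rises, chosen after their values were seen, were Col4a2 by 2.04, Col3a1 by 2.18 and Col5a2 by 1.91. The laminin chains Lamb1, Lamb2, Lamc1 and Lama5, partners of collagen IV in basement membranes, rose by 1.63, 1.27, 1.16 and 1.08. The other type I chain, Col1a1, rose by only 0.46 (adjusted p = 0.0341), and its adjusted p lay between 0.0654 and 0.174 without day 8 replicate 1 or 3 or day 3 replicate 1 or 3. The 2 genes that fell were Lamb3, a chain of epidermal-type laminin, at -1.34 (adjusted p = 8.52e-09), and Col5a3, at -1.21.

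Col4a1 and Col4a2 are shown because the pair moved together and is transcribed from neighbouring starts. In the RefSeq table of the rat build GRCr8 their start sites lie 77 bases apart on chromosome 16, Col4a1 on the plus and Col4a2 on the minus strand, and their promoter windows of 250 bases before to 50 after the start overlap by 176 bases. The window of Col4a1 is chr16:84885347-84885646, printed 5′ to 3′ on the plus strand. Capitals mark matches to CCAAT (in the reverse complement ATTGG) and to GGGCGG (in the reverse complement CCGCCC), general promoter letters known as the CCAAT box and the GC box, searched on both strands.
Col4a1: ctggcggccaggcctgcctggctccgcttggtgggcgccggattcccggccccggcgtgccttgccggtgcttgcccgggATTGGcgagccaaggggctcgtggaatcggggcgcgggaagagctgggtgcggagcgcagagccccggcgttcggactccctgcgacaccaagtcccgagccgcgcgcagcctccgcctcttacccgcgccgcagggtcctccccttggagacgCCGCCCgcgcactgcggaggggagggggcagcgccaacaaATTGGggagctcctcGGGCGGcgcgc
It holds 2 matches to each. Of all 33469 promoter windows in that table, 37.5% hold a CCAAT match and 33.1% a GC box match, so these letters are common and a match is no more than a description.

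Of 38 measured matrix proteases and inhibitors, 14 rose (36.8%) and none fell (median 0.19). This count and those of the lists below stand beside 8.66% of all genes called higher and 8.38% called lower. Mmp2, the type IV collagenase gelatinase A, stood at 8.16, 8.05 and 8.47 at day 8, against 5.71, 5.57 and 5.89 at day 3, 5.68-fold higher (adjusted p = 3.92e-12). The other probe set of Mmp2 changed by -0.09 and was not called. Timp2, the inhibitor and activation partner of Mmp2, was 3.00-fold higher (adjusted p = 1.33e-07), at 9.66 ± 0.05 at day 8 and 8.08 ± 0.02 at day 3. The other probe set of Timp2 changed by 0.25 and was not called. Adamts1, a secreted protease of proteoglycans, was higher by 2.34 (adjusted p = 6.13e-09). The days did not overlap for these 3 genes, a separation that their choice by small p favours. Lox, which cross-links collagen, was 3.08-fold higher (adjusted p = 4.59e-08).

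In the list of mesenchymal transition genes, 20 of 36 rose and 2 fell, with a median change of 0.39. Besides Vim and Anxa1, Tnc, the matrix glycoprotein tenascin C, rose by 1.75 on the log2 scale (adjusted p = 2.08e-11). Lgals1, galectin 1, rose by 1.90 and Cav1, caveolin 1, by 1.15, both chosen after their values were seen. Tgfbi and Zeb1 fell by 0.60 and 0.31, and 1 of the 2 was called without day 8 replicate 1 or day 3 replicate 2 or 3. Acta2, smooth muscle actin, was 9.06, 7.87 and 7.54 at day 8, against 8.01, 7.81 and 7.56 at day 3, a difference of 0.36 that missed the threshold (adjusted p = 0.504). Tagln, transgelin, stood at 10.90 ± 0.19 at day 8 and 11.29 ± 0.13 at day 3, and missed it as well (adjusted p = 0.414). Of 40 genes of the actin cytoskeleton, 10 rose and 4 fell. Ezr, ezrin, which ties actin to the membrane, led the rises with 3.04-fold (adjusted p = 2.28e-12). Mylk, a kinase of myosin light chain, rose 2.31-fold (adjusted p = 1.24e-08), while its other probe set, at 0.32 on the log2 scale, was not called. The 4 falls were 2 without day 8 replicate 1 and 2 without day 3 replicate 3.

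YAP and TEAD target genes, which respond to cell spreading and stiff surroundings, counted 15 rises and no fall among 28 (median 0.36), or 10 rises when probe sets under the table's median were left out. Ccn2, the matricellular factor CTGF, was already high and stood at 13.98, 13.86 and 13.79 at day 8, against 12.81, 12.56 and 12.83 at day 3, 2.21-fold higher (adjusted p = 2.98e-06). F3, tissue factor, the starter of blood clotting, was 2.69-fold higher (adjusted p = 1.70e-07). Axl, a receptor tyrosine kinase, stood at 6.93 ± 0.43 at day 8 and 5.48 ± 0.08 at day 3, a difference of 1.45 (adjusted p = 2.53e-07). These 3 genes did not overlap between the days. Among integrins and focal adhesion genes, 12 of 39 rose and 3 fell, with Tns1, Cd44 and Cd151 leading at 2.08-fold, 1.91-fold and 1.53-fold. The 12 were 8 without day 3 replicate 2, and the 3 falls were 2 without day 3 replicate 2 and 2 without day 3 replicate 3.

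Growth factor genes moved in both directions: of 62 ligands, receptors and binding proteins 18 rose (29%) and 9 fell (14.5%), with a median of 0.05. The 3 TGF-beta ligands Tgfb1, Tgfb2 and Tgfb3 rose by 0.90, 0.63 and 0.63. For Tgfb1 the levels were 6.56, 5.84 and 6.04 at day 8, against 5.50, 5.24 and 5.01 at day 3 (adjusted p = 7.31e-04). Inhbb, the beta B subunit of activin and inhibin, rose by 1.58 (adjusted p = 2.80e-11), and Igfbp7, a secreted binding protein, was 3.95-fold higher (adjusted p = 2.97e-10). Igf1, the liver's main endocrine growth factor, went the other way, at 9.30, 9.65 and 8.98 at day 8, against 10.86, 10.83 and 10.96 at day 3. That is 2.98-fold lower (adjusted p = 1.80e-10). Its partners Igfals and Ghr, the acid-labile subunit of the circulating complex and the growth hormone receptor, fell by 0.86 and 0.77, both chosen after their values were seen.

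Bile duct and progenitor markers counted 14 rises and 1 fall among 35 (median 0.28). Sctr, the secretin receptor of bile duct cells, rose by 1.65 (adjusted p = 4.72e-12), at 6.07, 6.18 and 6.32 at day 8, against 4.67, 4.43 and 4.53 at day 3. Epcam, an epithelial adhesion molecule of ducts and progenitors, Cd24 and the Notch ligand Jag1 rose by 1.38, 1.93 and 1.45, and were chosen after their values were seen. Onecut2, a transcription factor of liver and bile duct development, was 2.52-fold higher (adjusted p = 8.18e-07). Cdh17 fell by 1.12 on the log2 scale, and 2 members fell without day 8 replicate 2. Other members of the list did not pass the test: the fetal marker Afp stood at 6.45 ± 0.19 at day 8 and 6.74 ± 0.05 at day 3 (adjusted p = 0.0689). Its adjusted p was 0.0419 without day 8 replicate 2, 0.0236 with quantile normalization and 0.0424 with dim probe sets left out. Sox9, a duct transcription factor, has no probe set with 1 symbol and was not read.

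Of 41 measured genes of cell junctions and polarity, 12 rose (29.3%) and 6 fell (14.6%). The 12 were 8 without day 8 replicate 2 or without day 3 replicate 2. The 6 were 4 without day 8 replicate 3 or without day 3 replicate 1. Cldn4, a claudin of tight junctions in ducts, rose by 1.62 (adjusted p = 1.70e-09), and Cldn7 rose by 1.57. Gjb2, the gap junction protein connexin 26 of hepatocytes, stood at 7.51, 7.89 and 7.66 at day 8, against 9.59, 9.63 and 9.35 at day 3, 3.56-fold lower (adjusted p = 7.50e-12). Cldn2, a claudin of hepatocytes, fell by 1.06. Cldn7 and Cldn2 were chosen after their values were seen.

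Ccnd2, cyclin D2, stood at 9.22, 9.29 and 8.52 at day 8, against 6.60, 6.05 and 6.54 at day 3, 6.13-fold higher (adjusted p = 6.31e-10). Ccnd1, cyclin D1, was higher by 0.59 on the log2 scale, at 11.78 ± 0.24 at day 8 and 11.19 ± 0.21 at day 3 (adjusted p = 0.0162), but its adjusted p was 0.115 without day 8 replicate 1 and 0.116 without day 3 replicate 2. Of 44 genes of DNA replication and the G1 to S step, 5 rose and none fell, and of 56 mitosis genes 2 rose and none fell, shares near or below the 8.66% over all genes. The 5 rises were 2 without day 8 replicate 3 and 3 without day 8 replicate 2 or day 3 replicate 2, and the 2 mitosis rises were 0 without day 8 replicate 3 and 1 without day 8 replicate 2 or day 3 replicate 1 or 3. Mki67, the proliferation marker Ki-67, stood at 4.23, 4.12 and 4.04 at day 8, against 4.14, 4.52 and 4.47 at day 3, with an adjusted p of 0.140, or 0.0224 without day 3 replicate 1. Cdkn1a, the cell cycle inhibitor p21, stood at 11.37, 10.75 and 11.28 at day 8, against 10.75, 10.36 and 10.41 at day 3, a difference of 0.63 (adjusted p = 0.0516). It was called under several alternatives: its adjusted p was 0.0166 without day 8 replicate 2, 0.0396 without day 3 replicate 1 and also with dim probe sets left out, 0.0469 with quantile normalization and 0.0346 in a fit of the 6 arrays alone. Gadd45b, a stress sensor, and Mdm2, the p53 antagonist, were 2.34-fold and 1.71-fold higher (adjusted p = 3.17e-07 and 6.00e-07).

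The largest falls of single genes were those of G0s2 and Pnpla3, both on the list of fatty acid and triglyceride synthesis. G0s2, an inhibitor of the triglyceride lipase ATGL, stood at 6.26, 6.28 and 5.85 at day 8, against 9.27, 9.52 and 9.25 at day 3, a difference of -3.22 ± 0.12 (log2, SE), or 9.31-fold lower (adjusted p = 1.95e-15). Pnpla3, a lipid droplet protein induced by insulin and carbohydrate, stood at 6.47, 6.49 and 5.98 at day 8, against 9.55, 9.57 and 9.40 at day 3, 9.14-fold lower (adjusted p = 7.31e-13). Scd, stearoyl-CoA desaturase, which makes monounsaturated fatty acids, stood at 10.84, 10.55 and 9.94 at day 8, against 12.71, 12.77 and 12.87 at day 3, 5.06-fold lower (adjusted p = 8.00e-12). The arrays of the days were far apart in all 3 genes, and replicate 3 was the lowest of the day 8 arrays each time. Of the 32 measured genes of fatty acid and triglyceride synthesis, 20 fell and none rose, with a median change of -0.60, beside 8.38% of all genes called lower. The falls ran along the pathway, in genes chosen after their values were seen: Acly, which makes cytosolic acetyl-CoA, at -1.02 on the log2 scale, Acaca, acetyl-CoA carboxylase, at -1.06, Fasn, fatty acid synthase, at -1.30, and the desaturases Fads1 and Fads2 at -1.04 and -1.57. Regulators of the pathway were among them, Srebf1, the gene of SREBP-1, at -0.95 and Mlxipl, the gene of ChREBP, at -0.96. The lipid droplet coat genes Plin2 and Plin5 did not pass the test, at changes of 0.01 and 0.05.

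Cholesterol synthesis had the highest share of members lower among the lists, 85.7% beside 8.38% of all genes. Of 21 genes of cholesterol synthesis and uptake, 18 fell and none rose (median -0.73). Insig1, an endoplasmic reticulum anchor of SREBP and itself a target of it, stood at 9.68, 9.85 and 9.11 at day 8, against 10.94, 11.07 and 10.94 at day 3, 2.70-fold lower (adjusted p = 1.13e-08). Cyp51, lanosterol demethylase, was 2.35-fold lower (adjusted p = 1.13e-08), at 9.00 ± 0.32 at day 8 and 10.23 ± 0.03 at day 3. Lss, lanosterol synthase, which closes the sterol rings, was 2.17-fold lower (adjusted p = 6.06e-08). The days did not overlap for these genes. The 3 members that missed the threshold were Tm7sf2, Sc5d and Insig2, at -0.13, -0.43 and -0.14.

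Promoters of a pair of sterol genes are shown as examples from this list. Of the 21 genes, 17 had a window in the GRCr8 table, and 14 of the 17 held a CCAAT match and 14 a GC box match, against 37.5% and 33.1% of all windows. Insig2, Sc5d and Tm7sf2, which missed the threshold, each held a CCAAT match, and Sc5d and Tm7sf2 also a GC box match. These matches describe the letters only, and their part in the falls was not tested. None of the 17 held TCACNCCAC, the letters searched for a sterol regulatory element (N is any base, both strands), which 1.12% of all windows hold, and this says only that those letters are not in these windows. The window of Insig1 is chr4:8057720-8058019 and that of Lss is chr20:12118181-12118480, both on the minus strand and printed 5′ to 3′, with CCAAT and GGGCGG or their reverse complements in capitals.
Insig1: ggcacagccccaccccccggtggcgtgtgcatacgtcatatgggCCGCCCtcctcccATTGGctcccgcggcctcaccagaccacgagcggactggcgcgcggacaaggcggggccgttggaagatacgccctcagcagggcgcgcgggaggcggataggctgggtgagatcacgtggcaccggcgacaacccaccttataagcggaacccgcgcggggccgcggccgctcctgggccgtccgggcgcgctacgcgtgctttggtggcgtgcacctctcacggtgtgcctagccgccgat
Lss: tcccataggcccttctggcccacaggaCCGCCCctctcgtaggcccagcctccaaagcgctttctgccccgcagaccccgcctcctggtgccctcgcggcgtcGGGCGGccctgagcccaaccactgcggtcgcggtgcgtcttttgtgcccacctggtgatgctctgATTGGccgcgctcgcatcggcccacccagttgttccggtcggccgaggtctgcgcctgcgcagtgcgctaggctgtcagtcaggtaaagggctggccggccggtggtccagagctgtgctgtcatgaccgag
The Insig1 window holds 1 CCAAT match and 1 GC box match, and the Lss window 1 CCAAT match and 2 GC box matches.

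Fatty acid oxidation genes moved in both directions. Of 36 genes of oxidation and ketone synthesis, 11 rose and 6 fell, with a median of -0.00 (log2). Cpt1a, the carnitine palmitoyltransferase that admits fatty acids to mitochondria, stood at 10.23, 10.30 and 10.29 at day 8, against 7.97, 8.14 and 8.04 at day 3, 4.66-fold higher (adjusted p = 1.49e-13). Pdk4, which turns off pyruvate oxidation, rose by 1.58 (adjusted p = 7.33e-07), while its other probe set, at 0.41, was not called. Angptl4, a lipoprotein lipase inhibitor outside this list, was 4.06-fold higher (adjusted p = 2.60e-13). These 3 genes are textbook targets of PPAR-alpha, and their arrays did not overlap between the days. Fgf21, a fasting hormone of the same regulator, was instead 2.42-fold lower, at 6.16 ± 0.10 at day 8 and 7.44 ± 0.15 at day 3 (adjusted p = 2.72e-09). Fabp1, the liver fatty acid binding protein, did not pass the test, with 5.44 ± 0.12 at day 8 and 5.30 ± 0.31 at day 3. Creb3l3, a liver transcription factor of fasting lipid metabolism, was 2.18-fold higher (adjusted p = 1.84e-09). The 6 falls were 4 without day 8 replicate 3 and 4 without day 3 replicate 2.

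**Figure D2:**
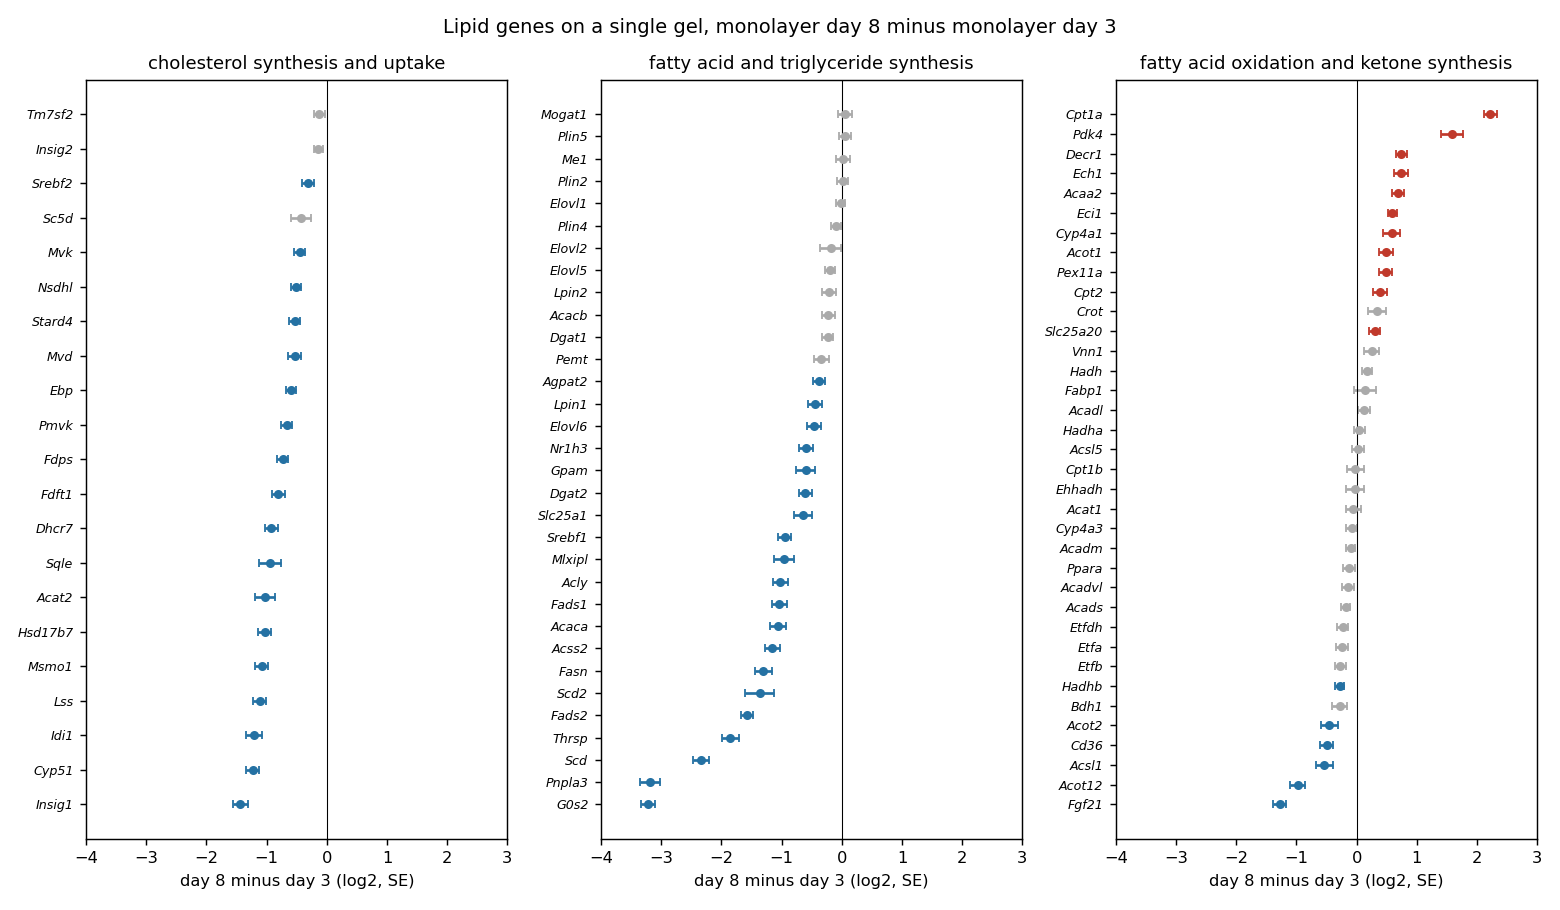
Late change (monolayer day 8 minus monolayer day 3, log2, bars of 1 SE) of each measured gene of 3 lipid lists; red points were called higher, blue points called lower and grey points missed the threshold. Cholesterol and fatty acid synthesis genes lie at or left of 0 except for a few grey points, while oxidation genes lie on both sides, with Cpt1a at 2.22 and Fgf21 at -1.28.

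In nitrogen metabolism the share of members lower was 66.7%, beside 8.38% of all genes. Of 57 genes of the urea cycle and amino acid breakdown, 38 fell and none rose (median -0.50), and 1 rose without day 8 replicate 3. Mat1a, the liver form of methionine adenosyltransferase, which makes S-adenosylmethionine, stood at 9.38, 9.55 and 9.18 at day 8, against 11.49, 11.52 and 11.44 at day 3, 4.34-fold lower (adjusted p = 8.78e-13). Cps1, which starts the urea cycle, stood at 10.23, 10.67 and 9.88 at day 8, against 11.50, 11.44 and 11.54 at day 3, 2.34-fold lower (adjusted p = 2.44e-07). Cth, which makes cysteine by transsulfuration, and Aass, of lysine breakdown, were 3.22-fold and 2.77-fold lower (adjusted p = 1.66e-10 and 1.47e-08). None of these 4 genes overlapped between the days. Further urea cycle genes, chosen after their values were seen, were Otc, Asl, Ass1 and Nags, which fell by 1.22, 0.76, 0.47 and 0.61 on the log2 scale. Arg1, arginase, the last step of the cycle, missed the threshold at 0.10. Urad, an enzyme of uric acid breakdown, was 4.01-fold lower (adjusted p = 1.13e-08).

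Of 17 genes of gluconeogenesis, fructose and glycogen, 12 fell and none rose (median -0.74). Gbe1, the glycogen branching enzyme, stood at 9.62, 9.88 and 9.41 at day 8, against 11.29, 11.20 and 11.31 at day 3, 3.10-fold lower (adjusted p = 5.66e-12). Tkfc, of fructose breakdown, and Gpd1, which joins glycolysis to glycerol, were 2.21-fold and 1.93-fold lower (adjusted p = 2.78e-08 and 7.33e-08). The other probe set of Tkfc changed by -0.09 on the log2 scale and was not called. Pck1, the first committed gene of gluconeogenesis, missed the threshold at 0.26. Glycolysis genes outside the liver forms counted 2 rises and 6 falls among 19. Pdk1 was 2.53-fold lower (adjusted p = 5.47e-10), and Tpi1 and Ldha were 1.55-fold and 1.40-fold lower. The 2 rises, Pfkm and Aldoa, by 0.47 and 0.42, were 1 without day 8 replicate 1 or 3 or day 3 replicate 2. In oxidative phosphorylation 6 of 48 subunits fell (12.5%, near the 8.38% of all genes called lower) and none rose, and the count was 5 without day 3 replicate 3 and 3 or 4 without any other array.

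Genes of the amino acid response, which ATF4 switches on when amino acids run short, and of serine synthesis fell in 14 of 28 cases and rose in none (median -0.36). Mthfd2, of the mitochondrial folate pathway, stood at 6.54, 6.82 and 6.65 at day 8, against 7.62, 7.67 and 7.60 at day 3, 1.94-fold lower (adjusted p = 3.11e-07). Psat1, of serine synthesis, was 1.74-fold lower (adjusted p = 1.27e-07). Chac1, which breaks down glutathione, stood at 8.20, 7.90 and 7.79 at day 8, against 8.92, 8.88 and 8.62 at day 3, 1.80-fold lower (adjusted p = 1.22e-05). The days did not overlap for these genes. Trib3, a pseudokinase induced by ATF4, was 1.78-fold lower (adjusted p = 1.83e-05), while Atf3, another target, was 2.09-fold higher (adjusted p = 3.39e-06). Nupr1, a small stress-induced nuclear protein, fell by 0.61 and Asns, asparagine synthetase, by 0.55, both chosen after their values were seen.

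The windows of Chac1 and Nupr1 are shown because they hold TTGCATCA (reverse complement TGATGCAA), letters typical of the composite site bound by C/EBP and ATF factors, in capitals below. Of the 28 genes, 25 had at least 1 window, and 6 genes held the letters in 6 of 26 windows (23.1%), against 0.795% of all windows. The 6 were Chac1, Nupr1, Aars1, Mars1, Nars1 and Slc1a4. Only Chac1 and Nupr1 of these were called, and the other 4 had changes between -0.11 and 0.11. The windows lie at chr3:126795881-126796180 on the plus strand for Chac1 and at chr1:190645852-190646151 on the minus strand for Nupr1.
Chac1: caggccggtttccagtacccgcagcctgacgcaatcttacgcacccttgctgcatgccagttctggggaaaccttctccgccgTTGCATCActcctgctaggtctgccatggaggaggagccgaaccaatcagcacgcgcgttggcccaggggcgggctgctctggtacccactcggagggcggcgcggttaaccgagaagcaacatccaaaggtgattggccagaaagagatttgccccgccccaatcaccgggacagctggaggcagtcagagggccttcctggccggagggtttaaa
Nupr1: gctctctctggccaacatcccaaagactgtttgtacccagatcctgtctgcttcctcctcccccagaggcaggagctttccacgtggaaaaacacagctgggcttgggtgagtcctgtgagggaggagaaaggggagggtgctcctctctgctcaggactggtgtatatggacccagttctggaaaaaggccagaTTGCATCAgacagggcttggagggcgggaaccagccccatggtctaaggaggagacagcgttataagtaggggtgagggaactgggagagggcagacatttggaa
A match is a description of the letters and says nothing of binding in these cells.

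Secreted liver proteins fell in part. Of 29 coagulation and complement factors 21 fell and 2 rose (median -0.66). Mbl2, a mannose-binding lectin that starts the complement cascade, stood at 7.42, 7.94 and 7.31 at day 8, against 9.88, 9.95 and 9.73 at day 3, 4.92-fold lower (adjusted p = 2.88e-13). Plg, plasminogen, and F10, coagulation factor X, were 3.41-fold and 2.79-fold lower (adjusted p = 8.50e-10 and 1.98e-10), and none of these overlapped between the days. The 2 rises, Masp1 and F5, by 0.55 and 0.40, were 0 without day 8 replicate 2 or day 3 replicate 1 and 1 without day 3 replicate 2. Of 28 plasma carrier proteins and apolipoproteins 17 fell and 2 rose (median -0.46). Gc, the vitamin D binding protein, stood at 12.46, 12.61 and 12.18 at day 8, against 13.50, 13.56 and 13.56 at day 3, 2.18-fold lower (adjusted p = 6.67e-10). Serpina6, the corticosteroid binding globulin, was lower by 1.83 on the log2 scale, and Lcat, which esterifies cholesterol in plasma, was 2.53-fold lower (adjusted p = 1.31e-09 and 1.04e-09). The 2 rises were Ttr, transthyretin, and Rbp4, retinol binding protein, which circulate as 1 complex.

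Ttr stood at 13.65, 13.57 and 13.61 at day 8, against 13.33, 13.28 and 13.31 at day 3, 1.24-fold higher (adjusted p = 0.00529), and Rbp4 rose by 0.47. With one array left out, 1 or 2 of the pair were called, 1 of them without day 8 replicate 1 or 2 or day 3 replicate 2 or 3. Alb, albumin, stood at 14.97, 15.05 and 14.97 at day 8, against 15.004, 15.01 and 14.995 at day 3 (adjusted p = 0.968). That is near the top of the scale, where the highest value of the table is 15.07, and whether the probe set was saturated was not tested. Acute phase proteins counted 9 falls and no rise among 16, or 6 falls and 1 rise without day 8 replicate 3, with Fgl1, Crp and Hamp 2.74-fold, 1.91-fold and 1.57-fold lower. Hamp encodes hepcidin, the hormone that limits iron uptake. Hjv, a co-receptor in hepcidin control, was 4.18-fold lower, at 6.07, 6.25 and 5.52 at day 8, against 8.10, 8.17 and 7.74 at day 3 (adjusted p = 1.04e-09).

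Transporters of the bile canaliculus and the blood side fell in 12 of 30 cases and rose in 2 (median -0.19). Abcb11, the bile salt export pump, stood at 7.56, 8.00 and 7.18 at day 8, against 9.48, 9.54 and 9.59 at day 3, 3.89-fold lower (adjusted p = 2.34e-09). The bile salt importer Slc10a1 was lower by 1.13 on the log2 scale (adjusted p = 3.29e-05), at 5.47 ± 0.40 at day 8 and 6.60 ± 0.20 at day 3. The phosphate and urate carriers Slc17a1 and Slc17a3 were 4.40-fold and 4.12-fold lower (adjusted p = 3.95e-14 and 1.46e-10). No array of one day reached the range of the other in these 4 genes. The canalicular pump Abcc2 rose by 0.65 and the carnitine carrier Slc22a5 by 0.51, the 2 rises of the list, which were 3 without day 8 replicate 3. Bile acid synthesis showed 4 falls and no rise among 18. Its rate-limiting gene Cyp7a1 stood at 4.12, 4.41 and 4.38 at day 8, against 4.18, 4.54 and 4.35 at day 3, under the table's median on both days (adjusted p = 0.873).

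Of 43 phase I drug metabolism genes 14 fell (32.6%) and 6 rose (14%), with a median of -0.14. Of 39 phase II genes 11 fell (28.2%) and 3 rose (7.69%, below the 8.66% of all genes called higher), with a median of -0.21. Cyp2c12, a steroid and drug hydroxylase, stood at 11.04, 11.06 and 9.82 at day 8, against 12.95, 13.01 and 12.81 at day 3, 4.87-fold lower (adjusted p = 8.45e-09). Ces1c, a carboxylesterase, was 4.19-fold lower (adjusted p = 2.26e-12), while its other probe set, at -0.06 on the log2 scale, was not called. Cyp2e1, which oxidises ethanol, was 1.96-fold lower (adjusted p = 4.97e-04). Aldh1a1, which makes retinoic acid, stood at 11.66, 11.63 and 11.61 at day 8, against 9.27, 9.33 and 9.36 at day 3, 4.97-fold higher (adjusted p = 4.21e-15). Gstp1, the glutathione transferase of non-hepatocyte epithelium, and Ugt2b35 were 1.81-fold and 1.89-fold higher (adjusted p = 2.93e-07 and 5.78e-08). The days were separated in each of these 6 genes. Genes of these families have close relatives, and whether a probe set also binds a relative was not tested.

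Of 31 liver transcription factors and nuclear receptors, 8 fell (25.8%) and 3 rose (9.68%, near the 8.66% over all genes), with a median of -0.07. Hnf4a, the master factor of hepatocyte identity, stood at 10.31, 10.36 and 10.27 at day 8, against 10.37, 10.29 and 10.48 at day 3 (adjusted p = 0.816). Cebpa stood at 8.08 ± 0.49 at day 8 and 8.28 ± 0.37 at day 3 (adjusted p = 0.755). The arrays of the days overlapped in both genes. The 8 that fell were Mlxipl, Nr5a2, Foxa3, Nr0b2, Nr1h3, Rora, Nr1h4 and Thrb, by 0.40 to 0.96 on the log2 scale. Of these Nr1h4, the bile acid receptor FXR, had an adjusted p of 0.00968, but 0.106 without day 8 replicate 3 and 0.0512 without day 3 replicate 1.

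Inflammatory genes were lower at day 8 more often than higher. Of 42 chemokines, cytokines and NF-kB targets 14 fell (33.3%) and 4 rose (9.52%). Of 37 interferon-induced and antigen presentation genes 9 fell (24.3%) and 3 rose (8.11%). Over all genes 8.38% fell and 8.66% rose, so the rises of both lists were near the background. Sod2, the mitochondrial superoxide dismutase, stood at 10.37, 10.12 and 10.02 at day 8, against 11.61, 11.54 and 11.42 at day 3, 2.56-fold lower (adjusted p = 4.57e-10). Cxcl9 and Cxcl10, chemokines induced by interferon, were 2.67-fold and 2.16-fold lower (adjusted p = 6.26e-09 and 6.50e-06). Il1r1, the interleukin 1 receptor, was 2.22-fold higher, at 9.78 ± 0.02 at day 8 and 8.62 ± 0.21 at day 3 (adjusted p = 1.53e-09). The 3 interferon list rises were 2 without day 8 replicate 1. Ltb, lymphotoxin beta, was lower by 2.30 (adjusted p = 6.67e-10).

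Stress lists were mixed. Of 35 oxidative stress and NRF2 target genes 11 rose and 4 fell, and the 11 were 7 without day 8 replicate 3 or day 3 replicate 1. Heat shock genes counted 6 rises and 2 falls among 22, the 2 falls being 3 without day 8 replicate 1 and 1 without day 8 replicate 2 or day 3 replicate 1 or 2. Cryab, a small heat shock protein, was 2.19-fold higher (adjusted p = 1.21e-08). Its levels were 12.39, 12.20 and 12.75 at day 8, against 11.33, 11.20 and 11.42 at day 3, with no overlap. The list of endoplasmic reticulum stress genes and chaperones, which also holds Atf3 (called higher) and Trib3 (called lower), counted 7 falls and 1 rise among 32, with 5 falls without day 8 replicate 2 and 3 or 4 without any other array, and 2 rises without day 8 or day 3 replicate 1. Of 29 immediate early genes 8 rose and 1 fell, or 5 rose without day 3 replicate 2. Sgk1, a kinase induced by glucocorticoids, was 2.89-fold higher (adjusted p = 8.50e-10). Lysosome and autophagy genes rose in 10 of 40 cases and fell in 1, with Cd68, Ctsh and Atp6v1a at 2.00-fold, 1.39-fold and 1.39-fold. Iron and heme genes fell in 12 of 26 cases and rose in 3, and 7 to 11 fell with one array left out, 7 of them without day 8 replicate 3 and 8 without day 3 replicate 2 or 3. The 3 rises were 1 to 3, with 1 without day 3 replicate 1. Proteasome subunits rose in 4 of 32 cases (12.5%, near the 8.66% over all genes). Ribosomal proteins fell in 6 of 33 (18.2%, beside 8.38% of all genes called lower). Whichever array was left out these were 2 or 3 rises and 2 to 5 falls, with 5 only without day 8 replicate 1 and 3 rises only without a day 8 array.

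**Figure D3:**
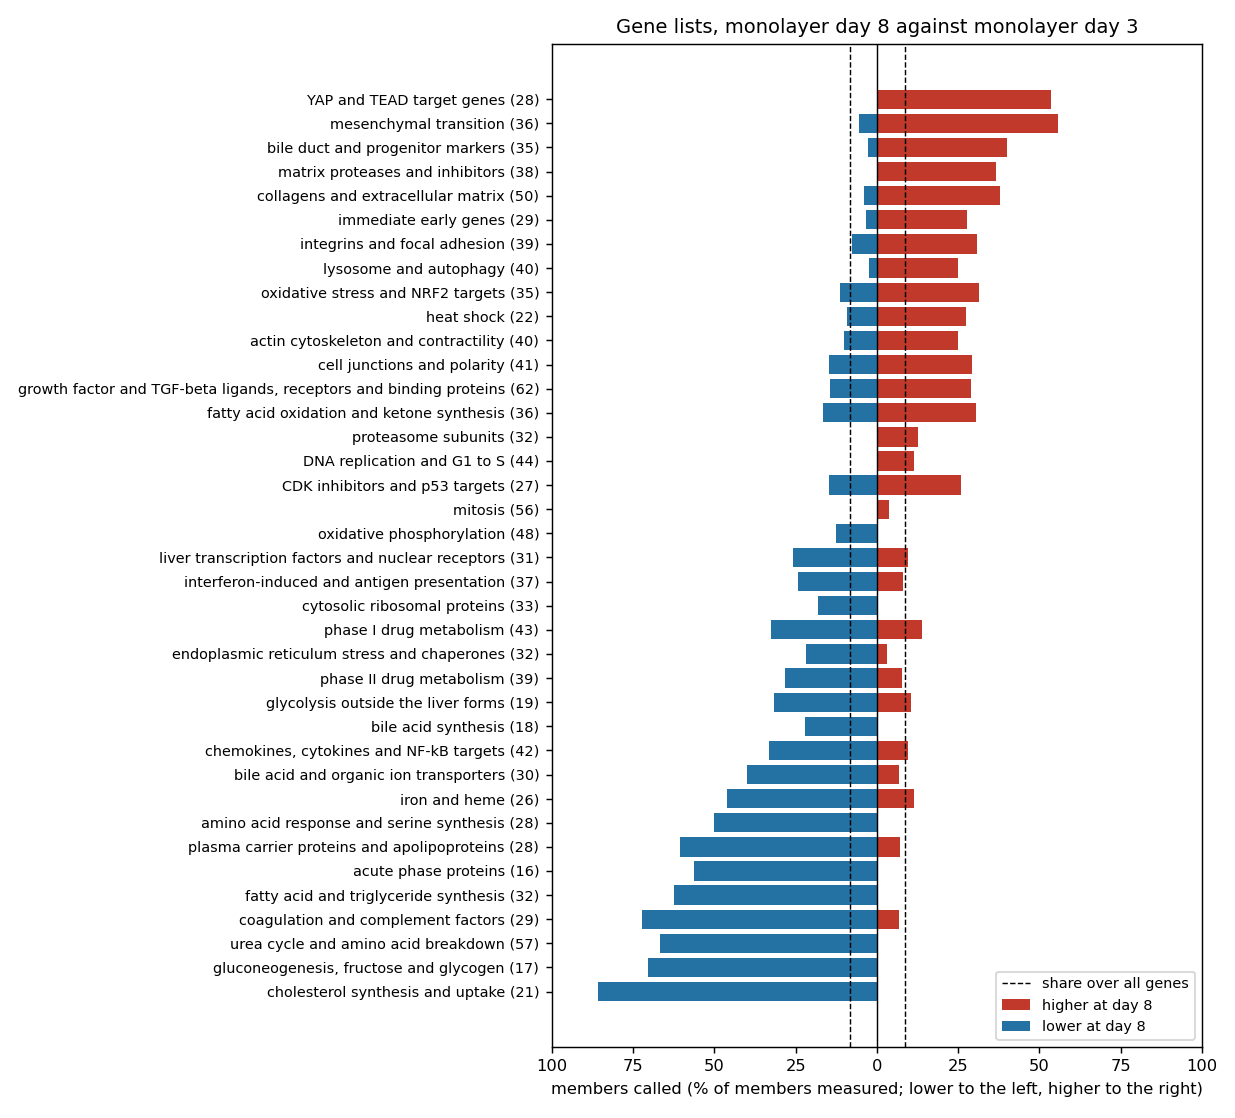
Share of measured members called higher (red, to the right) and lower (blue, to the left) at monolayer day 8 against monolayer day 3 in 38 gene lists, with the number measured in brackets and dashed lines at the shares over all genes, 8.66% higher and 8.38% lower. Cholesterol synthesis has 18 of 21 members lower and none higher, while mesenchymal transition has 20 of 36 higher.

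Markers of the labelled cell type and of others a liver preparation could hold were read in the same arrays. The mean level of 13 hepatocyte markers was 10.52 to 10.95 in day 8 arrays and 11.35 to 11.38 in day 3 arrays, with 8 markers lower, 1 higher and a median change of -0.61. Of them, 12 lay at or above the table's median at day 8 and 13 at day 3, which fits the labelled cell type on both days. Of 11 cholangiocyte markers 4 were higher (36.4%), Krt19, Krt7, Sctr and Epcam, and none lower. Their mean level was 6.61 to 6.70 at day 8 and 5.64 to 5.71 at day 3. Cftr, Tff2, Tff3, Aqp1, Muc1, Slc4a2 and Spp1 missed the threshold, at -0.13 to 0.43. Of 17 macrophage markers 7 were higher (41.2%) and 1 lower (5.88%). Lyz2, lysozyme, and Mrc1, the mannose receptor, were 3.64-fold and 2.40-fold higher, and the mean level of the list was 6.42 to 6.60 at day 8 and 6.08 to 6.19 at day 3. Cd68 was called higher as well, by 1.00 on the log2 scale. The 9 markers that missed the threshold included Adgre1 and Csf1r, at 0.03 and 0.15.

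Of 21 stellate cell and fibroblast markers 5 were higher (23.8%), Col1a2, Col3a1, Lox, Sparc and Col1a1. Only 1 was lower (4.76%), Rgs5, which was not called without day 8 replicate 1 or day 3 replicate 2. The list's mean level was 5.80 to 5.90 at day 8 and 5.37 to 5.48 at day 3. The defining markers Pdgfra, Pdgfrb, Des, Lrat, Thy1 and Dcn missed the threshold, at -0.08 to 0.11. Of 19 endothelial markers 4 were higher (21.1%) and 1 lower (5.26%), and all but Esam of these had a day 3 mean under the table's median. The mean level of the list was 4.91 to 4.97 at day 8 and 4.84 to 4.94 at day 3. The 4 were 2 without day 8 replicate 1, day 3 replicate 2 or day 3 replicate 3. No lymphocyte marker of 17 and no neutrophil or erythroid marker of 11 was called. At an unadjusted p under 0.05 the counts were 1 and 0. The part of other cell types in the rises of collagen, keratin and macrophage genes was not tested.

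The late change on a single gel was set against the late change between 2 gels, sandwich day 8 against sandwich day 3, with a test of the difference between the 2 changes. These changes share no array. The difference was called for 1908 of 31042 probe sets (6.15%), 941 with the higher change in monolayer (3.03%) and 967 with the lower (3.12%), and for 1253 genes (8.81%). Of the 2422 genes called in monolayer, 798 (32.9%) were also called in sandwich in the same direction, which is 37.2% of the 2148 called in sandwich (15.1% of all genes), and 127 were called in the opposite direction. The difference itself was called for 767 of the 2422, and in 661 of these the monolayer change was the larger in size. Across the 14217 genes the 2 changes had a Pearson r of 0.45 and a Spearman rho of 0.30. This is a description over genes, which are not independent replicates.

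Both duct keratins rose on the single gel beyond their change between gels, but the wider list of 35 bile duct and progenitor markers rose in both cultures. In sandwich 13 of the 35 rose and none fell (median 0.26), against 14 and 1 in monolayer (median 0.28). The difference was called higher for 7 of them and lower for 2 (median 0.01). Of 50 collagen and matrix genes the difference was called higher for 5 and lower for 2 (median 0.03), beside 4.23% and 4.58% of all genes. Of 36 mesenchymal transition genes it was called higher for 9 and lower for 4 (median -0.02). In sandwich 17 of the 50 and 16 of the 36 rose, beside 7.01% of all genes, against 19 and 20 in monolayer. Col1a2, Col3a1, Timp2, Lox and Adamts1 missed the threshold for the difference (adjusted p = 0.244, 0.436, 0.860, 0.0616 and 0.747) and rose in sandwich too. A missed threshold does not show equal changes. In simulated data this test recovered 11 of 100 differences of 0.5 (log2). Few probe sets were changed there, which makes the adjusted threshold stricter, so the share may be higher in these data. Krt19 rose by 3.45 in monolayer, against 0.34 in sandwich, a difference of 3.11 ± 0.15 (adjusted p = 4.63e-12). In sandwich its level was 4.78 ± 0.23 at day 8 and 4.44 ± 0.13 at day 3. Krt7 rose by 3.31 in monolayer, against 0.27 in sandwich (difference 3.03, adjusted p = 1.56e-09). Mmp2, Pamr1, Lhfpl6, Armcx2 and Ucp2 followed, with differences of 2.49, 2.54, 2.44, 2.23 and 2.16 (adjusted p = 1.13e-08, 4.63e-12, 1.44e-06, 9.30e-09 and 1.48e-08). Mmp2 stood out among them in sandwich, with a change of 0.01. Vim rose by 4.10 in monolayer and 3.37 in sandwich, a difference of 0.73 (adjusted p = 0.0365), and Map2 rose by 3.61 and 3.80, a difference of -0.19 ± 0.29 that missed the threshold (adjusted p = 0.855). Mat2a, the methionine adenosyltransferase of extrahepatic and growing cells, differed by 2.84 (adjusted p = 5.90e-12). It changed by 0.33 in monolayer, a call lost without day 8 replicate 1 or 3 or day 3 replicate 2 or 3 (adjusted p 0.0994 to 0.131), and fell by 2.51 in sandwich. The monolayer call was also lost with median centring (adjusted p = 0.103) and as the mean of the gene's probe sets (0.319). The other probe sets of Mat2a changed by -0.10 and 0.15 in monolayer and were not called.

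For a second set of genes, many of them metabolic, the monolayer change was the lower one. Scd fell by 2.34 in monolayer and changed by 0.08 in sandwich, a difference of -2.42 ± 0.20 (adjusted p = 1.14e-08). Its day 8 levels were 10.44 ± 0.46 in monolayer and 13.52 ± 0.15 in sandwich. Mat1a fell by 2.12 in monolayer and changed by 0.26 in sandwich (difference -2.38, adjusted p = 3.55e-10). Apoa4, an apolipoprotein of the fasting response, and Gstm3, a glutathione transferase, fell by 1.11 and 0.85 in monolayer but rose by 1.46 and 1.52 in sandwich, differences of -2.57 and -2.37 (adjusted p = 2.62e-10 and 7.37e-07). For a further group the monolayer change missed the threshold and sandwich rose. Npy, neuropeptide Y, changed by 0.37 in monolayer and 4.18 in sandwich, a difference of -3.81 (adjusted p = 2.62e-10). Its monolayer change passed without day 8 replicate 3, at 0.63 (adjusted p = 0.00661). Ugt2b1, Cyp17a1 and Cyp8b1, of glucuronidation, steroid and bile acid synthesis, changed by -0.24, 0.18 and 0.00 in monolayer and by 2.42, 2.80 and 2.50 in sandwich (adjusted p of the differences 3.01e-10, 6.49e-08 and 7.31e-10).

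**Figure D4:**
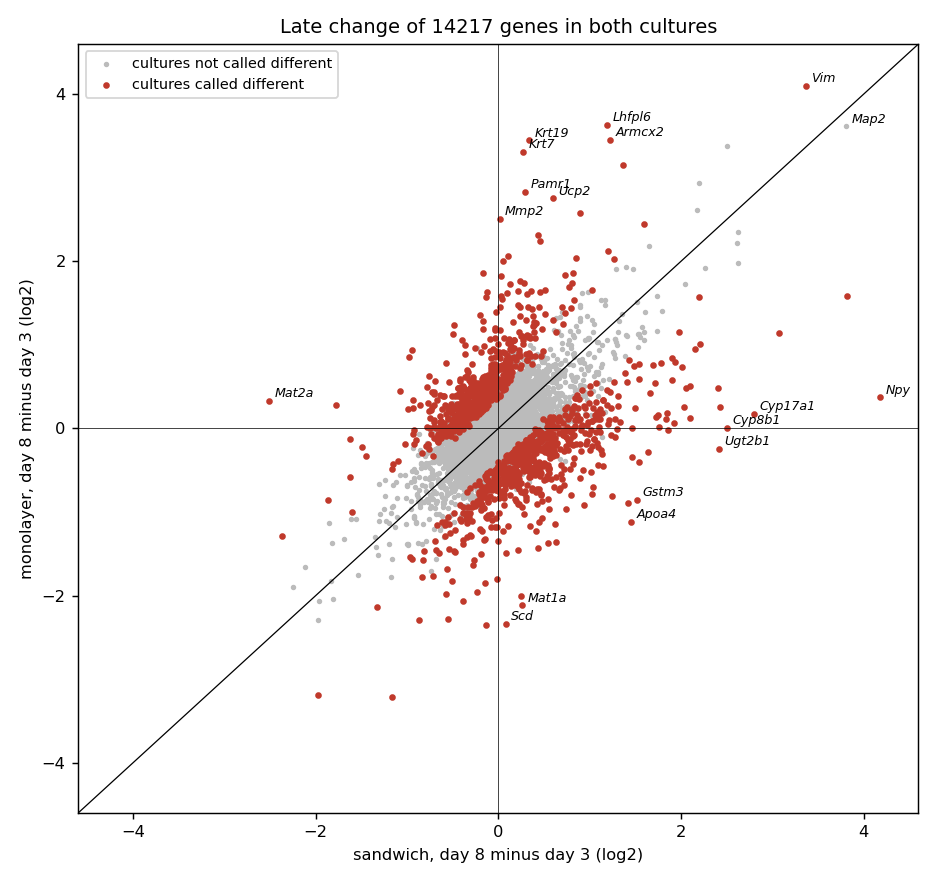
Late change (day 8 minus day 3, log2) of 14217 genes in monolayer (vertical axis) and in sandwich (horizontal axis), with the line of equal change; red points are genes whose changes differed between the cultures. Krt19, Krt7 and Mmp2 lie high and near 0 on the sandwich axis, Scd and Mat1a low and near 0, and Npy far to the right.

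By list, urea cycle and amino acid genes had the difference called lower in monolayer for 29 of 57 members and higher for 1, beside 4.58% and 4.23% of all genes. Fatty acid synthesis had 14 of 32 lower and none higher, and fatty acid oxidation 15 of 36 lower and none higher, with 21 of the 36 oxidation genes called higher in sandwich over the same days, where 7.01% of all genes were. Cpt1a rose by 2.22 in monolayer and 2.61 in sandwich, a difference of -0.39 ± 0.15 that missed the threshold (adjusted p = 0.138), while Pdk4 rose by 1.58 and 3.81 (difference -2.24, adjusted p = 2.88e-06). Cholesterol synthesis and uptake had the difference called lower for 8 of 21 and higher for none, and in sandwich 11 fell and 2 rose. In the amino acid response list 14 of 28 fell in monolayer and 16 of 28 in sandwich, where 8.1% of all genes did, with the difference called for 3. YAP and TEAD target genes had the difference called higher for 4 of 28 and lower for 1, and 9 rose and none fell in sandwich. Among them Ccn2 rose by 1.14 in monolayer and 3.08 in sandwich (difference -1.93, adjusted p = 8.36e-07). Mitosis genes had no member with the difference called, at 8.81% of all genes. Macrophage markers had it called higher in monolayer for 8 of 17 and lower for 0, and in sandwich 2 rose and 2 fell. Cholangiocyte markers had it called higher for 4 of 11 and lower for 0, and hepatocyte markers lower for 5 of 13 and higher for 0. The part of other cell types in these differences was not tested.

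**Figure D5:**
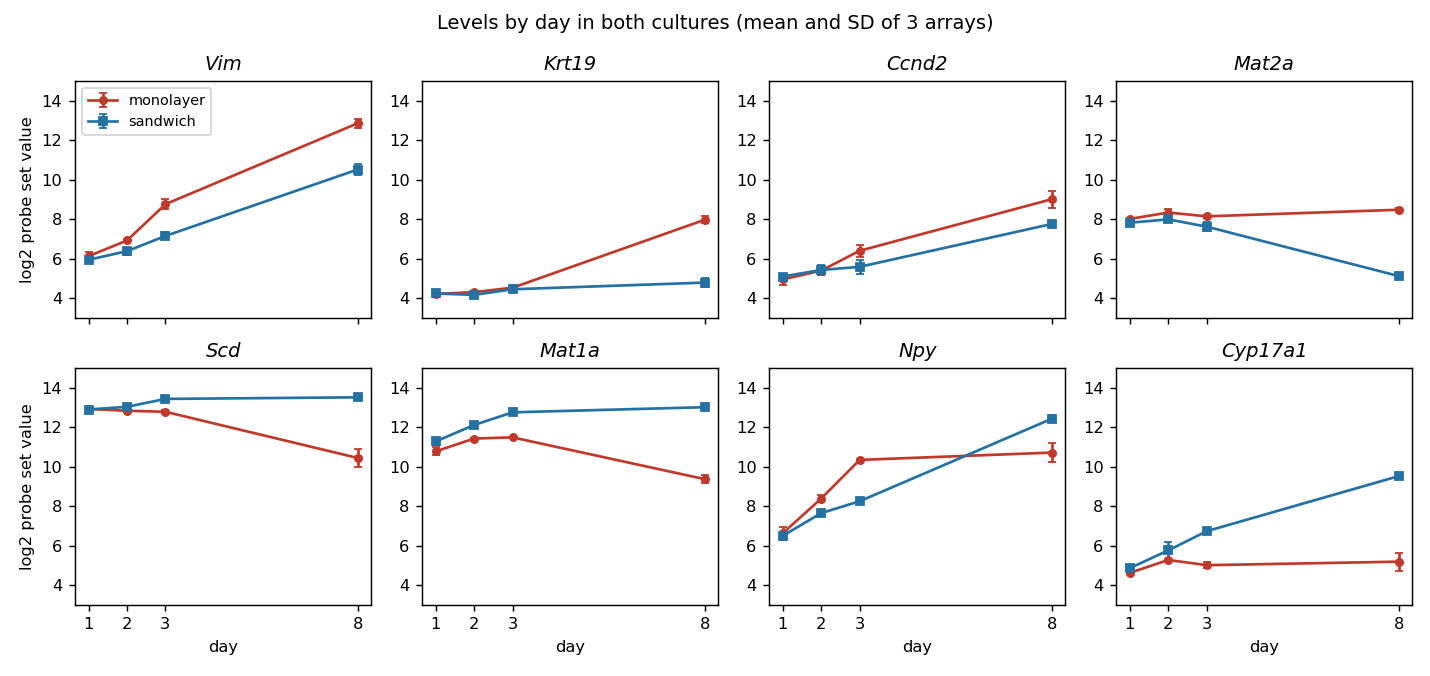
Log2 level at days 1, 2, 3 and 8 (mean of 3 arrays, bars of 1 SD) in monolayer (red circles) and sandwich (blue squares) for 8 genes. Between day 3 and day 8 Krt19 rose by 3.45 in monolayer and 0.34 in sandwich, Mat2a fell in sandwich, and Scd and Mat1a fell in monolayer while their sandwich changes were 0.08 and 0.26.

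The late step was last set against the early step of the same culture, monolayer day 3 against monolayer day 1. Both use the day 3 arrays, so their values are given side by side and the test is that of the late change minus the early change. It was called for 2200 probe sets (7.09%), 1162 with a higher (3.74%) and 1038 with a lower (3.34%) late change, for 1475 genes (10.4%), and for 1288 probe sets without day 3 replicate 3 and 1417 without day 3 replicate 2. Acta1, skeletal muscle actin, changed by 0.02 in the late step and 5.27 in the early step (difference -5.25, adjusted p = 1.76e-07). Its levels were 11.74, 11.77 and 11.81 at day 8, against 11.85, 11.51 and 11.91 at day 3. Tagln changed by -0.39 late and 4.98 early (difference -5.37, adjusted p = 7.23e-09). Scd2, another desaturase, turned round, with -1.36 late and 4.41 early (difference -5.77, adjusted p = 1.54e-09), as did Fam25a with -2.35 and 1.83 and the chemokine Cxcl3 with -0.91 and 2.91 (adjusted p = 9.72e-10 and 1.79e-10). Pla2r1, a phospholipase A2 receptor, changed by -0.47 late and 3.23 early (adjusted p = 2.05e-07).

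Other genes had the higher change in the late step. Krt19, Krt7 and Lhfpl6 changed by 3.45, 3.31 and 3.63 late and by 0.32, 0.21 and 0.37 early, differences of 3.13, 3.09 and 3.26 (adjusted p = 1.49e-10, 2.34e-08 and 3.54e-07). Angptl4 reversed, with 2.02 late and -1.34 early (difference 3.36, adjusted p = 9.25e-12). Rup2 and Fabp1 had changed by -4.31 and -2.96 early, and their late changes of -0.67 and 0.14 missed the threshold (adjusted p of the differences 1.87e-05 and 3.55e-07). The late change of Rup2 passed as the mean of its 4 probe sets, at -0.68 (adjusted p = 0.00662), and in a fit of the 6 arrays alone (adjusted p = 0.0412), and 1 of its other probe sets was called lower. Urea cycle and amino acid genes counted 22 rises and 12 falls among 57 in the early step, and no rise and 38 falls in the late step. Over all genes the early step called 26.1%, 11.1% higher and 15.1% lower. For Cps1 the changes were -1.23 late and 0.91 early (difference -2.13, adjusted p = 8.64e-07), and for Mat1a -2.12 late and 0.71 early (difference -2.83, adjusted p = 5.84e-10). Mitosis genes counted 20 rises among 56 early and 2 late, with the difference called lower for 10, beside 4.92% of all genes called lower and 5.45% higher.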

How the data were processed

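Total RNA was measured on Affymetrix rat arrays. The deposited table holds log2 expression values per probe set. RMA and limma are named per the submitters' processing notes, with no role or version. Of 31099 probe sets, 57 control sets were left out. Of the 31042 tested, 20826 had 1 gene symbol, 436 several and 9780 none. A gene was read by its 1-symbol probe set with the highest mean over 24 arrays. This left 14217 genes, and 4525 genes had more than 1 probe set. Of the 30 genes with the largest rises and falls, 9 had several probe sets. In 6 of the 9 another probe set was called the same way, and in 0 the opposite way.

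A limma model (limma 3.58.1, R 4.3.3) with a mean for each of the 8 groups was fitted to all 24 arrays, which shared one estimate of the spread. P-values were two-sided and Benjamini-Hochberg adjusted over all probe sets of a comparison, and calls were made at an adjusted p under 0.05. The 3 comparisons were monolayer day 8 minus day 3, the same minus the sandwich change, and the same minus the change between day 3 and day 1. No fold is given where the lower group mean is under 5.62. The number of arrays limits the precision.

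Named genes were the 15 largest rises and 15 largest falls among called genes whose days did not overlap, the 8 largest culture differences and the 6 largest differences from the early step in each direction, the 3 members of each of 45 lists with the smallest adjusted p, and a fixed set of markers. Others were chosen after their values were seen. The comparison, its members and the lists were chosen with earlier results of these data known. Alternatives were quantile normalization, median centring, leaving out dim probe sets, fitting only the groups compared, array weights, another variance prior, a replicate term, a 2-fold minimum, the mean of a gene's probe sets and leaving out each array. On simulated data over 31042 probe sets, the late comparison recovered 100 of 100 changes of 1 and 46 of 100 of 0.5 (log2), with 3 false calls. For the same sizes the culture difference recovered 86 and 11 of 100, and the difference from the early step 65 and 7 of 100. Only 100 probe sets of each size were changed, fewer than were called in the real data. The adjusted threshold was therefore stricter in the simulation, and the shares may be higher in the real data. Promoter windows came from RefSeq, build GRCr8.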

Additional observations from a re-analysis of the deposited data

Results flagged for a closer look

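The late change differed between monolayer and sandwich for 1908 probe sets, by the limma test of the difference itself. All values here are the monolayer change minus the sandwich change on the log2 scale. The 8 genes with the largest positive differences were Krt19 at 3.11, Krt7 at 3.03, Mat2a at 2.84, Pamr1 at 2.54, Mmp2 at 2.49, Lhfpl6 at 2.44, Armcx2 at 2.23 and Ucp2 at 2.16. The 8 with the largest negative differences were Npy at -3.81, Ugt2b1 at -2.66, Cyp17a1 at -2.62, Apoa4 at -2.57, Cyp8b1 at -2.50, Scd at -2.42, Mat1a at -2.38 and Gstm3 at -2.37. Of the 148 other genes named by the rule, 69 differed between the cultures. With 3 arrays per group, single arrays were not tested as outliers.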

How the results depend on the processing

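No called named gene changed sign under the alternatives run. The balance of higher and lower calls did turn: late calls were 1738 higher and 1775 lower with median centring and 1731 and 1816 with dim probe sets left out, differences from the early step 1203 and 1323 with quantile normalization and 644 and 773 without monolayer day 3 replicate 2, and culture differences 1043 and 1025 with array weights, with the same turn under the replicate block and without monolayer day 8 replicate 1, sandwich day 8 replicate 2 or sandwich day 3 replicate 3. Of 140 named genes called in the late comparison, 126 kept their call under each alternative that gave them a value, as did the 16 named culture differences and the 12 named differences from the early step. The 2-fold minimum was applied to counts and not to named genes, and leaving out dim probe sets gave a value for 11 of the 16 and 9 of the 12. With array weights the difference from the early step was called for 3437 probe sets, 1935 of them higher, against 2200 and 1162. Requiring at least 2-fold left 476 late calls, 283 higher and 193 lower. With one array left out, late calls were 2888 to 3340 (higher 1530 to 1911, lower 1358 to 1520), culture differences 1414 to 1825 (higher 662 to 978, lower 734 to 958), and differences from the early step 1288 to 2137 (higher 644 to 1170, lower 638 to 1010). The cause was not tested.

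The labels do not say whether replicate numbers pair the arrays, and the main fit did not use the numbers. Deviations of same-numbered day 8 and day 3 arrays from their group means correlated at 0.49, 0.06 and 0.27. Differently numbered arrays correlated at -0.40 to 0.21, and day 8 replicate 2 correlated at 0.11 with day 3 replicate 3. Whether arrays of 1 number share material was not tested. With a replicate block, 4593 late calls, 2512 culture differences and 2855 differences from the early step were made, against 3885, 1908 and 2200 without it. The block added the late calls of Cdkn1a (adjusted p = 2.39e-04), Mad2l1 (0.0285), Rup2 (0.0414) and Afp (0.0495) and ended no call of a named gene. The median late change over all probe sets was -0.01, or -0.03 with arrays centred on their medians. The table holds no detection calls, so signal over background is unknown for dim probe sets.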
